A study of Mus musculus with 15 samples.

Results

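Translation of an mRNA begins when initiation factors place a small ribosomal subunit on a start codon, and it proceeds when elongation factors deliver tRNAs to the ribosome and move it along the message. The eIF2 group carries the initiator tRNA, eIF3 bridges the mRNA and the small subunit, and the eIF4 group binds the cap and unwinds the leader, while the eIF4E-binding proteins (4E-BPs) keep the cap-binding protein from its partners. Many mRNAs of elongation factors, of some eIF3 subunits and of ribosomal proteins start with a 5′ terminal oligopyrimidine tract (5′TOP), a short run of C and T at the cap through which the mTOR pathway controls their translation, and in liver that pathway follows feeding.

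The factors were chosen by name as the genes whose mouse symbol begins with Eif or Eef, together with Etf1, Gspt1 and Pabpc1. They came to 74 genes, with 116 transcripts, out of 28167 RefSeq transcripts in the tables. One transcript was used for each gene, the one with the highest mean count, and 69 of the 74 averaged 10 counts or more per library and were tested. A sum over 64 of the 74, those outside a list of 10 known 5′TOP mRNAs, served for comparison.

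Ribosome-protected fragments were sequenced from whole liver of wild-type C57BL/6N male mice aged 8 to 10 weeks, kept in 12-h light and 12-h dark and then moved to constant darkness for 24 h. Livers were taken every 4 h at 7 circadian times (CT0 to CT24), from 2 mice at each time, which gave 14 libraries and no treated group. A footprint count combines mRNA amount and ribosome loading, and no matched RNA-seq was used here, so that the 2 cannot be told apart. Whole liver was lysed, so that fewer cells of a type and less mRNA per cell cannot be told apart either.

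Library totals ran from 40593197 to 90458783 counts, and the 74 factors took 0.107% to 0.298% of them. Major urinary proteins (Mup) took 34.2% to 57.6%, and TMM factors, which scale libraries to a common level, ran from 0.736 to 1.46. Hepatocyte markers summed to 36545 to 50741 CPM (the count scaled to a library of 1e+06), against 59.6 to 111 CPM for the 4 Kupffer cell markers, 68.2 to 110 CPM for the 4 endothelial and 91.3 to 138 CPM for the 3 stellate cell markers. The 3 cholangiocyte markers summed to 0.588 to 7.74 CPM and the 3 of 5 erythroid markers in the tables to 53.1 to 112 CPM. Summed levels of the Kupffer cell, endothelial, stellate cell and erythroid markers were lowest at CT16, none of these markers was called, and their part in the courses below was not tested. Pancreatic acinar markers, of cells outside the liver, reached 3059 CPM in CT20 replicate 2 and at most 60.5 CPM elsewhere. All counts of CT16 replicate 2 were even numbers. Halving them left the number of factors with a course at 11, but scaling to the library total undoes most of such a change. Without this library the number was 6.

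The sequences around the annotated starts of 8 factors are shown because the text turns on which mRNAs carry a pyrimidine tract there. Each window holds 5 bases before and 25 bases from the start in RefSeq's GRCm38.p6, 5′ to 3′ on the coding strand, and capitals mark the longest run of C and T that begins with C, where it has at least 5 bases.
Eef1a1, chr9:78481700-78481729, minus strand: CCCTCTTCCCgagggtgggggagaacggta
Eef2, chr10:81176626-81176655, plus strand: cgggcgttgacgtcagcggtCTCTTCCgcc
Eif3f, chr7:108934410-108934439, plus strand: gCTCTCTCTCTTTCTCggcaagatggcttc
Eif4b, chr15:102073768-102073797, plus strand: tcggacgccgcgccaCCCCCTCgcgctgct
Eif2s3x, chrX:94212627-94212656, minus strand: ttttCCTTTTCTCTCCgagcaagatggctg
Eef1b2, chr1:63176826-63176855, plus strand: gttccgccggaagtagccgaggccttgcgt
Eif4a2, chr16:23107463-23107492, plus strand: cccgtaggagcagggcggccgaggagcgcg
Eif4e, chr3:138526186-138526215, plus strand: gcagcggaggcggagggagctggtccttaa

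Eef1a1 has a run of 10 pyrimidines from the first base of the window, 5 bases before the annotated start, and it may extend further upstream. Eif3f has 15 that begin 4 bases before its start. Whether any of these runs lies at the cap of the mRNA was not tested. In Eef2 the run of 7 begins at base 16 of the annotated transcript, and in Eef1b2, which is on the 5′TOP list, the longest run in the window has 4 bases. Promoter sequences were given for 56 of the 74 factors, and 14 of these, 25%, had a run of at least 7 on the coding strand of this 30-base window, against 14.1% of 27025 genes. The run was present in 4 of the 5 factors of the 5′TOP list that had a sequence (Eef1a1, Eef2, Eif3f and Eif4b). The E-box CACGTG, which reads the same on both strands and is a binding sequence of the core clock activators, lay within the 300 bases from 250 before to 50 after the start in 15 of the 56 factors, 26.8%, against 8.09% of all genes. Of the called factors that had a sequence, Eef2 and Eif3f held it and Eef1a1, Eef1b2, Eif4a2 and Eif2ak4 did not. Of the other 13 of the 15, Eif5a2 was not tested and the rest were not called. Eef1akmt4 and Eef1akmt4-ece2 among them share a start. A gene counted if any of its listed starts matched, so genes with more starts had more occasions to match. The 27025 genes also include some outside the 20101 genes with counts. A match is a description of letters and not a site.

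Of the 69 factors tested, the 4E-BP paralog Eif4ebp3 and the elongation factors Eef1a1, Eef2 and Eef1b2 had the largest fitted 24-h courses. A 24-h course was tested with edgeR's quasi-likelihood F test of a cosine and a sine of circadian time, and a transcript was called at a Benjamini-Hochberg adjusted p under 0.05 over the 17299 transcripts tested. Of the 69 factors 11 were called, which is 15.9%, beside 11.3% of all transcripts. The fitted peak lay between 14 h and 18 h, a window set after the peaks were seen, in 10 of the 11, that is 10 of 69 factors beside 2.25% of all transcripts called with a peak in that window. DESeq2 called 15 of the 69, beside 14.7% of all transcripts. Under total-count scaling it was 7, that is 10.1% beside 8.25% of all transcripts, and with JTK_CYCLE on TMM-scaled CPM it was again 7, beside 8.91%. With JTK_CYCLE on total-count CPM the 2 factors called, 2.90%, stood below the 7.58% of all transcripts, and without CT16 replicate 2 the 6 called, 8.70%, stood beside 9.03%. Under these 4 settings the share of factors called was closer to that of all transcripts than 15.9% is to 11.3%, or below it. The gap was also narrower with 1 transcript per gene (13.0% beside 10.6%) and a minimum of 100 counts (18.2% beside 16.7%). The same held for upper quartile scaling and the replicate number as a factor (13.0% beside 11.1% in both). It was wider with DESeq2 (21.7% beside 14.7%), time points as levels (15.9% beside 7.08%) or a minimum of 1 count (15.7% beside 9.47%). The median peak-to-trough difference was 0.31 (log2) over the 69 factors and 0.44 over all transcripts tested. Fitted to the mice numbered 1 and to those numbered 2 alone, the peaks of the 11 called factors lay 0.0967 h to 1.62 h apart. As the 11 were selected by the fit to all these mice together, this is no separate check on them.

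**Figure D1:**
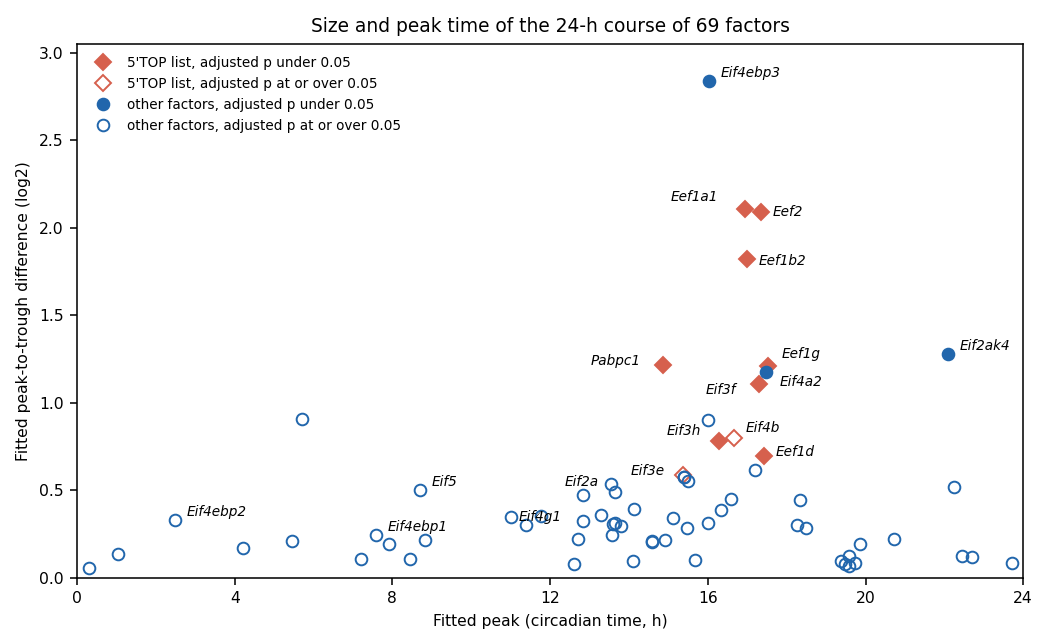
Fitted peak-to-trough difference (log2, vertical axis) against fitted peak in circadian hours (horizontal axis) for the 69 tested factors. Diamonds are the 10 factors of the 5′TOP list, circles the others, and filled symbols passed the adjusted threshold of 0.05. The called factors other than Eif2ak4 sit between 14.9 h and 17.5 h.

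Eef1a1 is the GTPase that brings aminoacyl-tRNA to the ribosome and had the highest mean footprint density of all factors over the 14 libraries. Its TMM-scaled level was 281 and 317 CPM in the pair of mice at CT0, 145 and 88.7 at CT4, 120 and 131 at CT8, 635 and 379 at CT12, 492 and 643 at CT16, 207 and 345 at CT20, and 285 and 343 at CT24. Every mouse at CT12 and CT16 stood above every mouse at the other 5 times, and every mouse at CT4 and CT8 stood below all others. The mean was 568 CPM ± 106 (SD, n = 2) at CT16 and 117 CPM ± 39.5 (SD, n = 2) at CT4, a 4.87-fold difference. The fitted peak-to-trough difference was 2.11 (log2, SE 0.49), with the peak at 16.9 h (SE 0.82) and an edgeR adjusted p of 0.0047. Of the alternatives only JTK_CYCLE on total-count CPM did not call it (P adjusted over lags = 0.181).

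Eef2, the translocase that moves the ribosome by a codon, was likewise lowest at CT4 and CT8 and highest at CT12 and CT16. It stood at 294 and 271 CPM at CT0, 102 and 71.7 at CT4, 84.7 and 97.5 at CT8, 378 and 332 at CT12, 383 and 512 at CT16, 142 and 222 at CT20, and 242 and 244 at CT24. The mice at CT4 and CT8 were again below all others and those at CT12 and CT16 above all others. The peak-to-trough difference was 2.09 (log2, SE 0.54) with a peak at 17.4 h (edgeR adjusted p = 0.012). Without CT16 replicate 2 the difference was 1.96 and the call was lost (edgeR adjusted p = 0.057), as it was with JTK_CYCLE on TMM-scaled (P adjusted over lags = 0.0878) and total-count CPM (0.345).

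The subunits of the eEF1B exchange complex, which reload eEF1A with GTP, were called together. Eef1b2, the exchange subunit, went from 9.99 and 8.91 CPM at CT4 to 31.5 and 49.99 CPM at CT16, and its fitted difference was 1.82 (log2, SE 0.43; edgeR adjusted p = 0.0071). Eef1g, the gamma subunit, had 16.4 and 18.8 CPM at CT8 and 39.9 and 52.2 CPM at CT16, with a fitted difference of 1.21 (log2, SE 0.28; edgeR adjusted p = 0.0080). Eef1d, the delta subunit, had the smallest course of the called factors, from 8.74 and 9.67 CPM at CT4 to 15.99 and 17.8 CPM at CT16, with a fitted difference of 0.69 (log2, SE 0.15; edgeR adjusted p = 0.018). Their peaks lay at 17.0 h, 17.5 h and 17.4 h. Eef1d lost its call without CT16 replicate 2 (edgeR adjusted p = 0.075), without CT4 replicate 1 (0.063), under total-count scaling (0.0855) and with JTK_CYCLE on both scales. Eef1g lost its call with JTK_CYCLE on both scales and Eef1b2 on total-count CPM.

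The other elongation genes were not called. Eif5a, which helps the ribosome through proline stretches and carries the hypusine modification, was second in mean density. It ranged only from 68.2 to 91.6 CPM over the 14 libraries, with a fitted difference of 0.22 (log2; edgeR adjusted p = 0.41). This narrow range holds under TMM scaling. Unscaled, Eif5a took 4948 of 40593197 counts in CT0 replicate 1 and 4862 of 82597296 in CT8 replicate 2. Eefsec, which delivers selenocysteine, had a fitted difference of 0.19. Eef1e1, an auxiliary factor of the tRNA synthetase complex, had 0.90 with a peak at 16.01 h but an adjusted p of 0.12. Eef2k, the kinase that inhibits eEF2, ranged from 2.29 to 4.75 CPM with a fitted difference of 0.30 (edgeR adjusted p = 0.61). None of the 5 tested genes among the kinase and the methyltransferases of elongation factors was called, beside 11.3% of all transcripts.

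**Figure D2:**
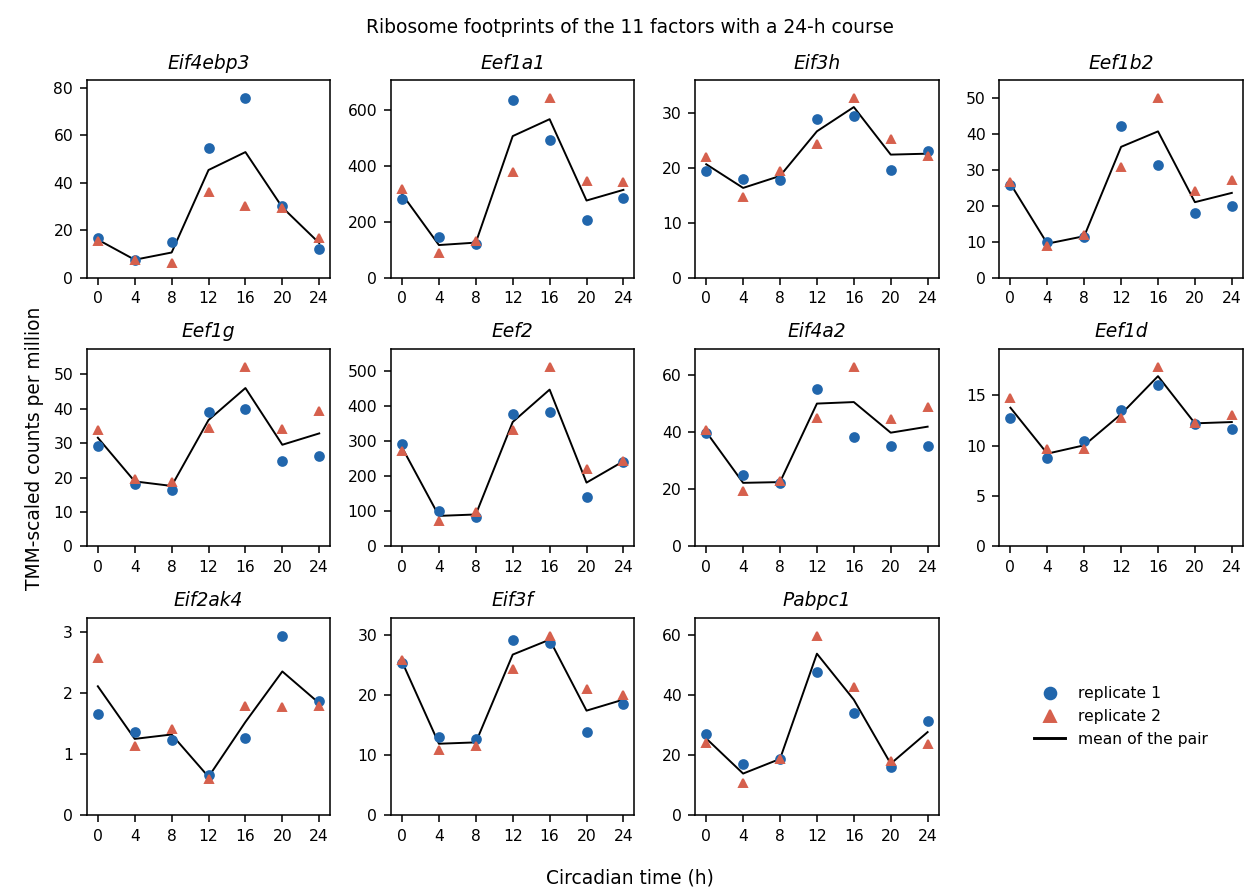
TMM-scaled CPM (vertical axes, from 0) against circadian time (h) for the 11 called factors. Circles and triangles are the mice numbered 1 and 2 at each time and the line joins their means, which are lowest at CT4 or CT8 and highest at CT12 or CT16 in all but Eif2ak4.

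Eif4ebp3, the 4E-BP paralog, had the largest course of any factor. Its level was 16.7 and 15.4 CPM at CT0, 7.58 and 7.47 at CT4, 14.8 and 6.32 at CT8, 54.5 and 36.2 at CT12, 75.6 and 30.2 at CT16, 30.1 and 29.2 at CT20, and 12.3 and 16.9 at CT24. The mice at CT12, CT16 and CT20 stood above all the mice at the other times, although the pair at CT16 differed from each other by more than any other pair. The peak-to-trough difference was 2.84 (log2, SE 0.41) with a peak at 16.04 h (SE 0.53) and an edgeR adjusted p of 2.91e-05. It was the only factor that was called under all 29 alternative settings and left-out libraries.

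Its paralogs were not called. Eif4ebp1 ranged from 3.07 to 8.03 CPM, with a fitted difference of 0.24 and an edgeR adjusted p of 0.80. Eif4ebp2 ranged from 7.05 to 11.3 CPM, with a fitted difference of 0.33, a peak at 2.48 h and an edgeR adjusted p of 0.31. Per length of CDS the 3 paralogs stood at 77.1 RPKM ± 61.2 (Eif4ebp3), 22.2 ± 4.03 (Eif4ebp2) and 16.01 ± 3.60 (Eif4ebp1; SD, n = 14 libraries). At its lowest, Eif4ebp3 was at 19.2 RPKM, within the range of Eif4ebp2 (14.4 to 29.2 RPKM), and at its highest it was at 233 RPKM. Eif4e, the cap-binding protein that these paralogs bind, ranged from 3.78 to 6.61 CPM with a fitted difference of 0.21 (edgeR adjusted p = 0.73).

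Within the eIF4 group, which also holds the helicase and the scaffold of the cap complex, the helicase paralogs differed in their courses. Eif4a2 had 25.1 and 19.5 CPM at CT4, 22.2 and 22.9 at CT8, 55.1 and 45.0 at CT12 and 38.3 and 62.9 at CT16, and was called with a difference of 1.17 (log2, SE 0.30; edgeR adjusted p = 0.017). The call was lost without CT16 replicate 2, CT4 replicate 2 or either CT8 library (edgeR adjusted p = 0.0502 to 0.073), and with JTK_CYCLE (P adjusted over lags = 0.345 on TMM-scaled and 0.465 on total-count CPM). Eif4a1 ranged from 26.3 to 42.5 CPM, had a fitted difference of 0.29 and was not called (edgeR adjusted p = 0.36). The difference between the paralogs' courses was not itself tested. Eif4a2 is not on the 5′TOP list, and its start window above has no run of 5 pyrimidines.

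Pabpc1, the poly(A)-binding protein that joins the tail to eIF4G, was called with its highest pair at CT12. Its level was 17.0 and 10.7 CPM at CT4, 47.7 and 59.6 at CT12, 34.1 and 42.7 at CT16 and 16.1 and 18.1 at CT20. The mice at CT12 and CT16 stood above all others, and the fitted peak was at 14.9 h (SE 1.41) with a difference of 1.21 (log2, SE 0.44). The edgeR adjusted p of 0.0475 was close to the threshold, and the call was absent with DESeq2 (adjusted p = 0.067), with JTK_CYCLE on both scales (P adjusted over lags = 0.804 and 0.616), under total-count scaling (edgeR adjusted p = 0.166) and in 10 of the 14 fits that left out a library. It was also lost with the replicate number as a factor (replicate block), with CDS reads only, under upper quartile scaling and with 1 transcript per gene (edgeR adjusted p = 0.0554 to 0.0607).

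The scaffold Eif4g1 had a small course with little spread. It ranged from 111 and 113 CPM at CT0 to 142 and 137 CPM at CT12, and the fitted difference was 0.32 (log2, SE 0.04) with a peak at 12.8 h (SE 0.46). The edgeR adjusted p was 0.054, just outside the threshold, and the DESeq2 adjusted p was 0.0034. Eif4g2 and Eif4g3, its paralogs, had fitted differences of 0.10 and 0.11 with edgeR adjusted p of 0.84 and 0.87. Eif4b, the helicase cofactor, had 0.80 with a peak at 16.7 h and an edgeR adjusted p of 0.12 (DESeq2 adjusted p = 0.0488), and Eif4e2, which binds caps without eIF4G, had 0.22.

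In eIF3, 2 of the 14 subunits were called, 14.3% beside 11.3% of all transcripts, and none was under total-count scaling. Eif3h went from 18.04 and 14.7 CPM at CT4 to 29.5 and 32.7 CPM at CT16, with a difference of 0.78 (log2, SE 0.15; edgeR adjusted p = 0.0058). It lost its call under total-count scaling (edgeR adjusted p = 0.101) and with JTK_CYCLE on total-count CPM (P adjusted over lags = 0.465). Eif3f went from 12.9 and 10.8 CPM at CT4 to 28.6 and 29.8 CPM at CT16, with a difference of 1.11 (log2, SE 0.34; edgeR adjusted p = 0.044). The Eif3f call was lost in 9 of the 14 fits that left out a library, and also under the replicate block, with CDS reads only, with 1 transcript per gene, with a term for the second day, with JTK_CYCLE and under total-count or upper quartile scaling. Both are on the 5′TOP list, and the third listed subunit, Eif3e, had 0.58 and an adjusted p of 0.15. Just outside the threshold lay Eif3m at 0.0504 and Eif3l at 0.067, with differences of 0.55 and 0.45, and DESeq2 called both (adjusted p = 0.023 and 0.0185).

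The other subunits had fitted differences under 0.60. Eif3d had a fitted difference of 0.07, and Eif3c of 0.24 and Eif3a of 0.39 had adjusted p of 0.34 and 0.16. Eif3j1 and Eif3j2 had identical counts in all 14 libraries, so that their reads could not be told apart and they are 1 measurement, although both are counted among the 14.

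No factor of the eIF2, start codon and subunit joining group was called, out of 14 tested, and none of the 5 eIF2B subunits, which recharge eIF2 with GTP. Of all transcripts 11.3% were called, a share that gives few calls in groups of this size. Eif2a had a fitted difference of 0.49 with a peak at 13.6 h (edgeR adjusted p = 0.069), and DESeq2 called it (adjusted p = 0.0493). Eif2s3x, the eIF2 gamma subunit whose start window above holds a run of 12 pyrimidines that begins with C, had 0.62 with a peak at 17.2 h (edgeR adjusted p = 0.080). Eif5, the GTPase activator of the initiation complex, had its highest level at CT8, with 51.7 and 57.0 CPM, and its lowest at CT0, with 27.5 and 35.8 CPM. Its fitted peak was at 8.70 h (SE 1.30), near the time at which Eef1a1 and Eef2 were low, but its difference of 0.50 (log2, SE 0.18) had an edgeR adjusted p of 0.11. Eif1, which guards start codon choice, ranged from 24.4 to 46.4 CPM and was not called (edgeR adjusted p = 0.74).

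Of the eIF2 kinases, which lower initiation in stress, Eif2ak4 alone was called and with a different timing. The gene encodes GCN2, which senses uncharged tRNA. Its level was 0.67 and 0.59 CPM at CT12, the lowest pair, and 2.94 and 1.77 CPM at CT20, the highest, with 1.65 and 2.57 at CT0 and 1.36 and 1.14 at CT4. The fitted peak was at 22.1 h (SE 0.96) and the difference 1.28 (log2, SE 0.31; edgeR adjusted p = 0.030). It rested on few reads, with 34 to 160 counts per library, and was lost when any of 4 single libraries was left out and with the time points as levels (edgeR adjusted p = 0.0577). All 6 pancreatic acinar markers were called too, with the fitted peak of their sum at 22.2 h, and their part in this course was not tested. Eif2ak2 (PKR) and Eif2ak3 (PERK) had differences of 0.21 and 0.28 with adjusted p of 0.80 and 0.79.

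Neither of the 2 release factors was called, beside 11.3% of all transcripts. Etf1, which reads stop codons, had 12.1 and 13.6 CPM at CT0 and 19.9 and 23.9 CPM at CT12, with a fitted difference of 0.47 and an edgeR adjusted p of 0.14. Gspt1, its GTPase partner, ranged from 32.4 to 42.3 CPM with a fitted difference of 0.10 (edgeR adjusted p = 0.86).

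**Figure D3:**
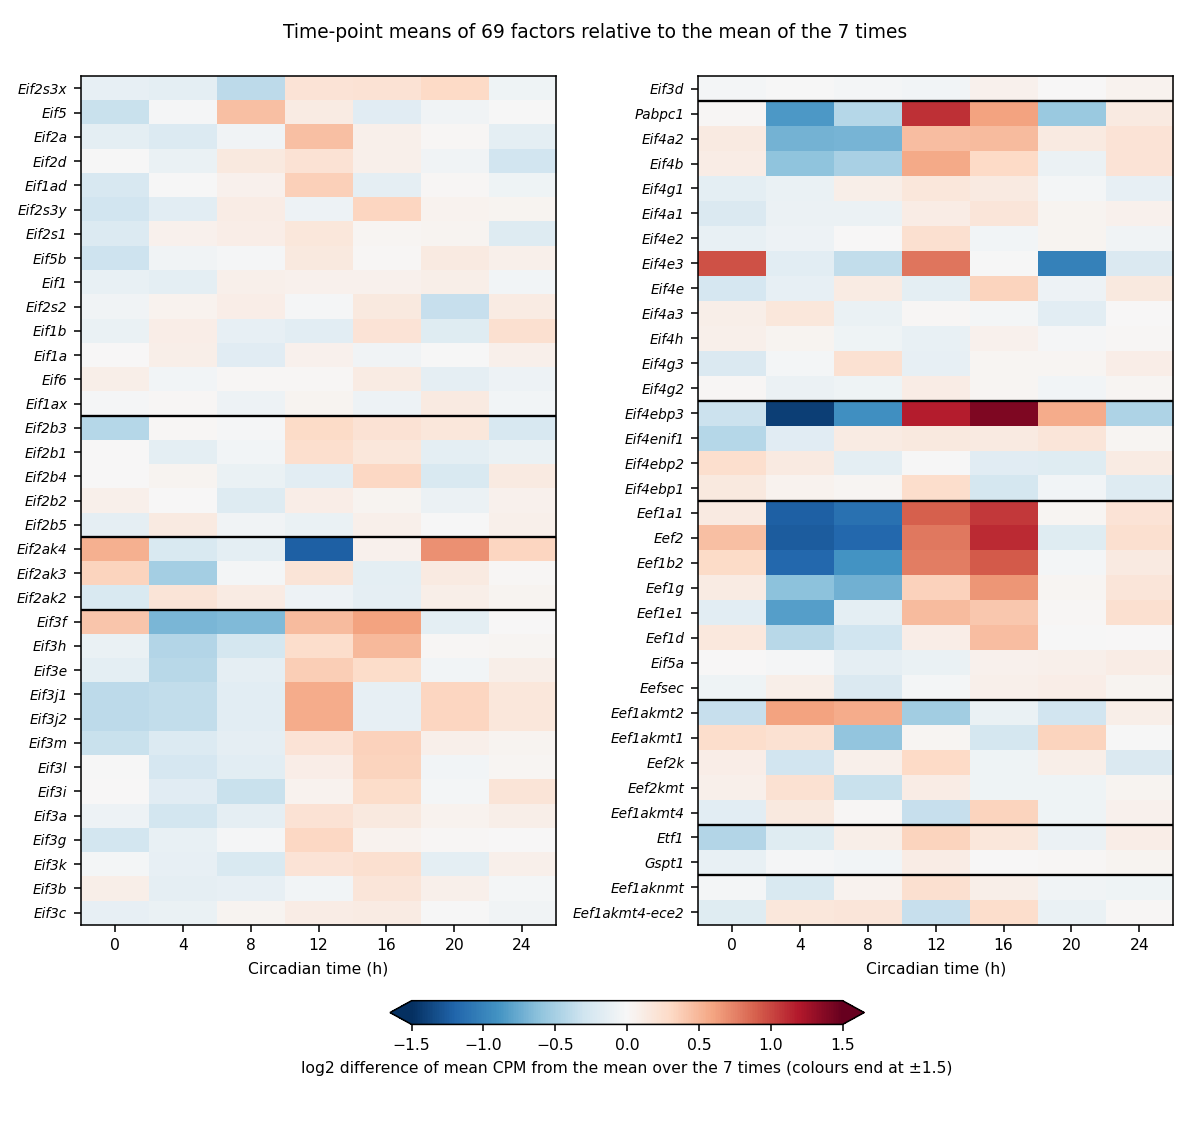
Time-point means of the 69 tested factors as log2 differences from each factor's mean over the 7 times (colour scale, ending at ±1.5), with circadian time (h) across. Lines separate the role groups, from eIF2 at the upper left through eIF2B, eIF2 kinases and eIF3, then eIF4, eIF4E binding, elongation, elongation kinase and methyltransferases, termination and others at the lower right. Time-point means lie 1 or more (log2) from the factor's mean in Eif4ebp3, Eef2, Eif2ak4, Eef1a1, Eef1b2, Pabpc1 and Eif4e3, of which Eif4e3 was not called.

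Grouped by the 5′TOP list (Eef1a1, Eef1b2, Eef1d, Eef1g, Eef2, Eif3e, Eif3f, Eif3h, Eif4b and Pabpc1), 8 of the 11 calls were on the list. That is 8 of the 10 listed factors, against 3 of the 59 other tested factors (Eif4ebp3, Eif4a2 and Eif2ak4), or 5.08%, beside 11.3% of all transcripts. DESeq2 called 8 of the 10 as well, with Eif4b in place of Pabpc1, beside 14.7% of all transcripts. Outside the list it called 7 of the 59, or 11.9%. Of the 10 listed, the number called was 4 without CT16 replicate 2 (beside 9.03% of all transcripts) and 4 under total-count scaling (beside 8.25%). It was 3 with JTK_CYCLE on TMM-scaled CPM (beside 8.91%) and 0 with JTK_CYCLE on total-count CPM (beside 7.58%). With JTK_CYCLE most calls were outside the list, 4 of 7 on TMM-scaled and 2 of 2 on total-count CPM. All 10 had a fitted peak between 14 h and 18 h, the window set after the peaks were seen, as had 18 of the 59 others and 15.8% of all transcripts. The median peak-to-trough difference was 1.16 (log2) in the list, 0.30 in the other factors and 0.44 in all transcripts. The list is drawn from general knowledge of 5′TOP mRNAs and was set with earlier results of these data known. It does not follow the start windows. Outside it, Eif2s3x (12 bases), Eif2s3y (12), Eif3k (11), Eif4enif1 (10) and Eif3l (9) had long pyrimidine runs there and were not called. Eif2ak4, with a run of 7, was called, as was the listed Eef1b2 with 4.

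The summed level of the 10 listed factors was 753 and 773 CPM at CT0, 362 and 259 at CT4, 321 and 352 at CT8, 1273 and 946 at CT12, 1097 and 1432 at CT16, 486 and 744 at CT20, and 696 and 781 at CT24. Between CT8 and CT12 the mean went from 336 CPM ± 21.5 to 1109 CPM ± 231 (SD, n = 2). With TMM scaling the 64 other factors together ranged only from 979 to 1229 CPM over the 14 libraries. Their time-point means differed at most 1.21-fold, against 4.07-fold for the 5′TOP list. On total counts these ranges would differ, as TMM factors ran from 0.736 to 1.46. Eef1a1 and Eef2 made up most of the listed sum.

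**Figure D4:**
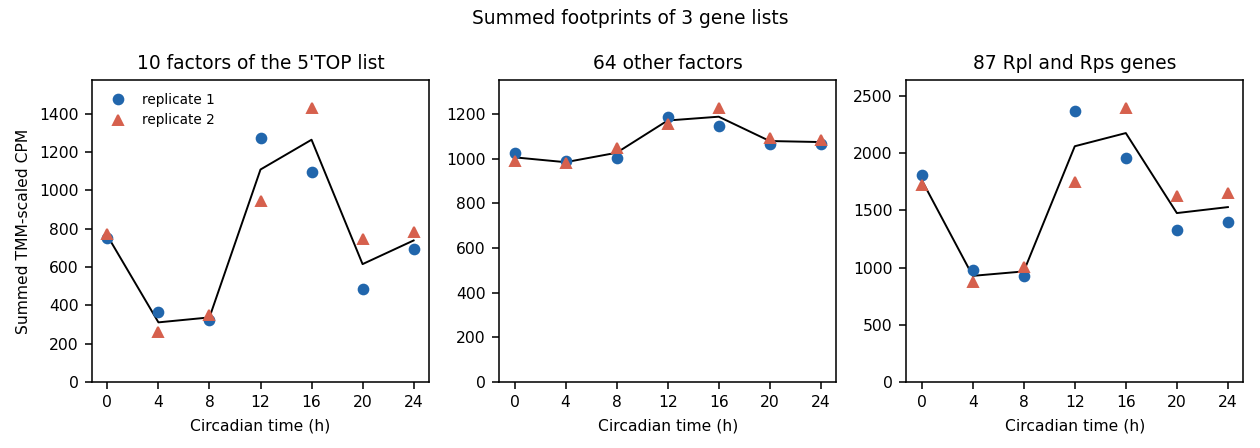
Summed TMM-scaled CPM (vertical axes, from 0) against circadian time (h) for the 10 factors of the 5′TOP list, the 64 other factors and 87 Rpl and Rps genes, nearly all of ribosomal proteins. Circles and triangles are the mice numbered 1 and 2 and the line joins their means. The listed factors and the Rpl and Rps genes are low at CT4 and CT8, while the other factors stay between 979 and 1229.

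Cytosolic ribosomal proteins, whose mRNAs carry 5′TOP tracts, were taken by symbol (Rpl or Rps and a number, without Rps6k). The 87 genes so found include some that are no ribosomal protein or only a paralog or pseudogene of one, such as Rps19bp1, Rpl7l1, Rpl31-ps12 and Rpl34-ps1, and Rps27 and Rps27rt with identical values. Of the 82 tested 51 were called, 62.2% beside 11.3% of all transcripts, 46 of them with a peak between 14 h and 18 h, and the median difference was 1.23 (log2). The number was 21 without CT16 replicate 2 (25.6%), 37 under total-count scaling (45.1%), 14 with JTK_CYCLE on TMM-scaled CPM (17.1%) and 1 with JTK_CYCLE on total-count CPM, which at 1.22% is below the 7.58% of all transcripts. Their summed level had its lowest time-point mean of 928 CPM at CT4 and its highest of 2178 CPM at CT16, a 2.35-fold difference. Among the regulators of translation factors, 6 of the 33 tested were called, 18.2% beside 11.3% of all transcripts in the edgeR fit. Under total-count scaling it was 2, or 6.06%, below the 8.25% of all transcripts, and with JTK_CYCLE it was 4 on TMM-scaled CPM (12.1% beside 8.91%) and 3 on total-count CPM (9.09% beside 7.58%). The 6 were Mknk2, an eIF4E kinase (1.24, peak 13.6 h), Larp1, a binder of 5′TOP mRNAs (0.66, peak 22.5 h), Ddit4, an mTOR inhibitor (2.03, peak 21.2 h), Mtor (0.67, peak 10.5 h), Ppp1r15b, an eIF2 phosphatase subunit (0.60, peak 17.3 h), and Deptor (0.41, peak 12.1 h).

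CT24 lies a circadian day after CT0, so a 24-h course takes them as equal. No factor passed the test of their difference (edgeR quasi-likelihood test, adjusted p under 0.05), and none of the 17299 transcripts did (0%). At an unadjusted p under 0.05 there were 2 of the 69 factors, beside 5.05% of all transcripts. The pair was Eif3f, lower by 0.41 (log2) at CT24, and Etf1, higher by 0.54 (edgeR adjusted p = 0.96 for both). DESeq2 called no factor either. Over the 69 factors the median difference was 0.07 (log2), against 0.01 over all transcripts.

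Footprint density in the CDS, which can be compared between genes since it is per length, spanned from 0.309 RPKM (Eif2ak4) to 207 RPKM (Eef1a1) among the tested factors, with a median of 10.5 RPKM. The 5 densest were Eef1a1 (207 RPKM ± 116), Eif5a (152 ± 15.2), Eef2 (90.8 ± 49.99), Eif1 (88.1 ± 13.7) and Eif4ebp3 (77.1 ± 61.2; SD, n = 14 libraries). Eef1a1 and Eif5a swapped order over the day, since Eef1a1 fell to 58.8 RPKM at its lowest while Eif5a never went below 125 RPKM. Eif1, Eef2 and Eif4ebp3 had overlapping ranges and no settled order.

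The 5 factors below the minimum for testing had few or no counts. Eif4e1b had 0 counts in all 14 libraries, and a count of 0 allows up to 3 counts, which is 0.037 to 0.0717 CPM per library. Eef1a2, the muscle and neuron form of eEF1A, had 0 counts in 12 libraries and 10 counts in all, and Eif5a2 had 0 in 10 libraries and 11 counts in all. Eef1akmt3 had 18 counts in all and Eif4a3l1 had 1. By the study's methods its density profiles used uniquely aligned reads, and whether the deposited counts did is not given in the sources used here. Eif3j1 and Eif3j2 hold identical counts, so that levels of genes with near-identical copies are uncertain. These are Eef1a1, Eif5a, Eif4a1, Eif1, Eif1a with Eif1ax, Eif3c and Eif2s3x with Eif2s3y, and the overlapping Eef1akmt4 and Eef1akmt4-ece2.

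Leaders differed widely in their share of footprints. Upstream open reading frames (uORFs) in a 5′UTR can take up ribosomes before the CDS, and several initiation factors are known to be controlled through their own leaders. The 5′UTR share is the number of leader reads as a percentage of leader plus CDS reads, and 38 factors averaged 10 counts or more in both regions. The median share was 10.2% over these 38 factors and 9.13% over the 5097 genes that met the same minimum. The 5 highest were Eif1a (47.7% ± 9.05), Eif1ad (43.6% ± 7.86), Eif1ax (38.9% ± 9.12), Eif5 (33.4% ± 4.83) and Eif4e2 (25.8% ± 5.61; SD, n = 14). The first 3 encode eIF1A, which helps the small subunit scan, and a protein that shares its fold.

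**Figure D5:**
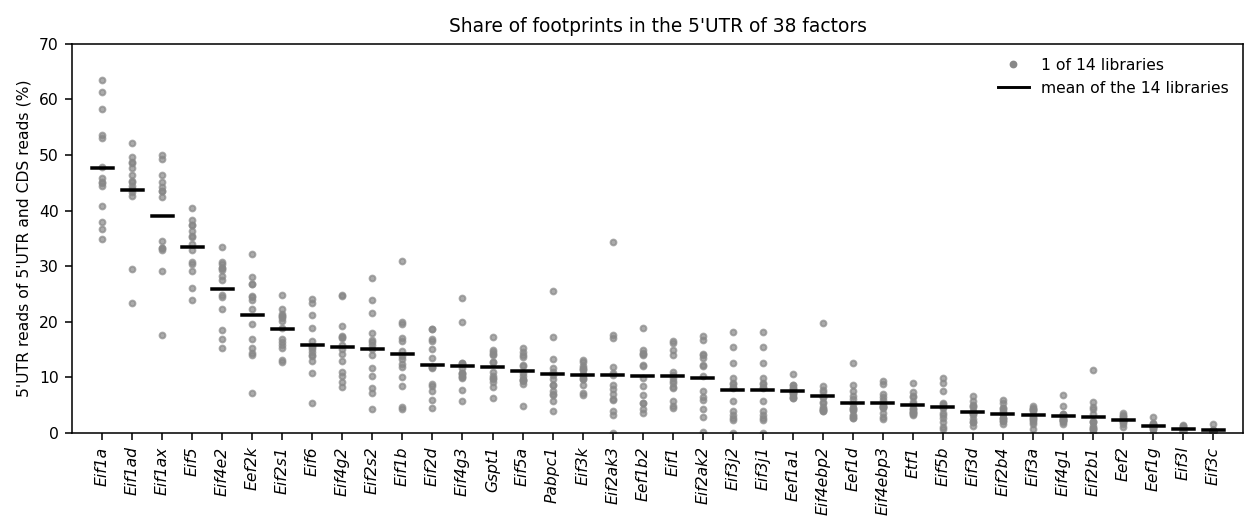
Leader reads as a percentage of leader plus CDS reads (vertical axis) for the 38 factors that averaged 10 counts or more in both, in falling order. Grey points are the 14 libraries and black bars their means, from 47.7% in Eif1a to 0.436% in Eif3c.

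Ranges of the first 3 overlapped, from 34.9% to 63.5% in Eif1a, 23.3% to 52.1% in Eif1ad and 17.6% to 50% in Eif1ax, so their order is not settled. Eif5 kept between 23.8% and 40.5%. Per nucleotide, leaders were densest relative to the CDS in Eif2ak3 (1.96 times), Eif2s1 (1.95 times, named after its value was seen) and Eef2k (1.68 times). The leader of Eif5 held 1.21 times the density of its CDS, and that of Eif1ax 1.36 times, while Eif4e2 had 0.468 times. Of the factors with a course, Eef1a1 had 7.60% ± 1.16, Eef2 2.39% ± 0.67, Eif4ebp3 5.36% ± 2.00 and Eef1b2 10.3% ± 4.76 (SD, n = 14).

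Leader sequences could be read for 49 factors that had a promoter entry and whose 5′UTR and CDS lengths in the tables and in the annotation lay within 1 nt for each exon. The 5′UTR lengths were unequal in 16 of the 49, by up to 21 nt (Eif4g1). Of these 14 had at least 1 uORF (ATG to an in-frame stop within the 5′UTR), 28.6% beside 39.8% of 15692 genes. The uORFs of 24 to 30 nt are printed because they show what a scanning ribosome meets in these leaders, with the start and stop codons in capitals.
Eif4e2, chr1:87214000-87214023, plus strand, exon 1: ATGaacaacaagttcgacgcgTGA
Eif2s2, chr2:154892794-154892820, minus strand, exon 1: ATGcaagagcctagtgcggtgctgTGA
Eif4g3, chr4:137993490-137993516, plus strand, exon 1: ATGttggatgctctgctcgttgagTGA
Eif4a1, chr11:69672343-69672372, minus strand, exon 1: ATGgctggggcggggtcggacgctctaTAA

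The Eif4e2 leader also holds a uORF of 33 nt that begins at its base 2. Eif5 has 2 uORFs, of 36 and 69 nt, and the second ends 21 nt before the CDS. Eif1ad has 2, of 63 and 60 nt. Among factors with the minimum counts, the median 5′UTR share was 11.6% in the 12 with a uORF and 7.66% in the 14 without, beside 12.7% in 2234 genes with and 6.48% in 2021 genes without. Eif2s2 had 15.0% ± 6.55 and Eif4g3 12.1% ± 4.74 (SD, n = 14). Eif4a1 had a mean of only 0.214 counts in its leader, despite its uORF, and was below the minimum. The counts are given per region, so reads on a uORF cannot be told from other leader reads.

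Whether the leader share followed the time of day was tested with limma on the log2 of leader over CDS counts, which needs no scaling between libraries. None of the 38 factors was called, and none of 7640 transcripts (0%). At an unadjusted p under 0.05 there was 1 factor, beside 4.93% of all transcripts. It was Eif2ak2, with a fitted difference of 2.47 (log2; limma adjusted p = 0.81), on leader shares from 0.233% to 17.5%. The edgeR fit with the CDS as offset called no factor either. In Eef1a1 the leader share stayed between 6.25% and 10.6% while its total changed over the day, and its ratio had a fitted difference of 0.10 (limma adjusted p = 0.98).

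Reads after the stop codon were few in most factors. The 3′UTR held 34.3% of the reads of Eef2kmt, a methyltransferase of eEF2, 7.35% of those of Eif4a2 and 6.66% of those of Eif1. Eif4ebp2 had 5.51% and Eif1b 4.68%, and all other tested factors were under 3%.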

How the data were processed

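The deposited tables hold raw read counts per RefSeq transcript for the CDS and both UTRs, with the region lengths in nt, which the authors made without normalization. By the study's methods, fragments of 26 to 32 nt were aligned to mm10 (Bowtie2 2.1.0.0, SAMtools 0.1.19.0 in the submitters' processing notes), after removal of rRNA reads, and exact matches were kept. Whether the deposited counts passed the same filters is not given in the sources used here. Of 28167 accessions 27840 matched a symbol. The last pair is CT24 in its titles and CT00 in another label, and the titles were used. CT16 replicate 2 had another run, whose data a label places in that mouse's table.

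Regions were added, scaled by TMM and fitted with edgeR 4.0.16 (R 4.3.3), the cosine and sine terms together, over the 17299 transcripts with a mean count of at least 10. Ratios used limma 3.58.1 with a pseudocount of 0.5. DESeq2 1.42.0 and JTK_CYCLE, which the study used, were alternatives; here its threshold of 0.05 was set on P adjusted over the lags. CPM divide the count by the TMM-scaled library total, and RPKM divide CPM by CDS length. SEs come from a least-squares cosine fit of log2 CPM. With 2 mice per time an SD rests on 2 values. Counting floors cover counting error only.

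On simulated counts of 17168 transcripts with 200 changed, the edgeR course called 31 of 100 with a peak-to-trough difference of 1 (log2), 87 of 99 with 2, and 7 others. The limma ratio, on 7574, called 15 of 99 with 2 and 62 of 100 with 4.

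The factors and lists were chosen with earlier results of these data known. The factors named in full are those called, the 5 densest in the CDS, the 5 with the highest leader share and the families of 4E-BPs, eIF2 kinases, eEF1A, eEF2, eIF5A, eIF4, Eif1, Eif5 and release factors with Pabpc1; others are named as examples of their group. Sequences are RefSeq's GRCm38.p6, and 18 factors have no entry in its promoter table as used here. Figures were drawn with matplotlib.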

Additional observations from a re-analysis of the deposited data

How the results depend on the processing

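Of the 69 tested factors 11 had a 24-h course. The number was 7 under total-count scaling in place of TMM, 7 with JTK_CYCLE on TMM-scaled CPM and 2 with JTK_CYCLE on CPM of the total count (Eif4ebp3 and Eif2ak4), and 6 to 13 when single libraries were left out, the lowest without CT16 replicate 2. It lay between 9 and 15 under the other settings (DESeq2, upper quartile, TMM without Mup, other count minimums, CDS reads only, 1 transcript per gene, time points as levels, a term for the second day, and CT16 replicate 2 halved, which was added after seeing the data). With the replicate block, that is the replicate number as a factor, it was 9, and Eif3f and Pabpc1 lost their calls. Over the 21 pairs of time points, deviations of same-numbered mice correlated at -0.08 to 0.22, above 0.1 in 3 pairs. These values do not settle whether same-numbered mice share more than a number. Over all transcripts 1947 were called, 1427 under total-count scaling, 1542 and 1312 with JTK_CYCLE on TMM-scaled and total-count CPM, 1564 without CT16 replicate 2, 1225 with time points as levels, 1251 with 1 transcript per gene (of 11747 tested), 1916 with the replicate block, and 1499 to 2062 without single libraries. Of the 10 factors on the 5′TOP list 8 were called, 8 with DESeq2 (Eif4b in place of Pabpc1), 4 under total-count scaling, 3 with JTK_CYCLE on TMM-scaled CPM and 0 on total-count CPM, 6 with the replicate block and 4 without CT16 replicate 2; the cause was not tested. Without that library Eef2, Eef1d, Eif3f, Eif4a2 and Pabpc1 lost their calls, and Eef1a1, Eef1b2, Eef1g, Eif3h, Eif4ebp3 and Eif2ak4 kept them. Pabpc1 kept its call in 4 of the 14 fits without a library and Eif3f in 5. Eif2ak4 lost it without CT0 replicate 2, either CT12 library or CT20 replicate 1, and with the time points as levels. Peaks of the called factors moved by less than 6 h under all these settings. Eif4g1 passed with DESeq2 (0.0034), JTK_CYCLE on TMM-scaled CPM (0.0018), CDS reads only (0.048) and a minimum of 100 counts (0.033). The ratio and CT24 comparisons gave 0 factors under every setting run, also with the replicate block. Leader shares and CDS densities of the named factors moved by less than 1 SD under the alternatives tried.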
